A study of Gallus gallus with 8 samples.

Results

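The 9 genes described here encode enzymes that carry glucose through glycolysis to lactate, in chick embryo ectoderm measured on Affymetrix GeneChip Chicken Genome arrays. They are HK1, HK2, GPI, PFKP, ALDOC, PGAM1, ENO1, LDHA and LDHB, and 1 more symbol of the same list, PGK1, was skipped because no probe set carries that symbol. All 16 probe sets that name 1 of these genes were taken, out of 38439 probe sets tested, of which 27168 name a single gene and together cover 13009 genes. A probe set is a group of short oligonucleotides that reports 1 transcript, and where a gene had several, the probe set of the highest mean signal was used as its main reading.

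There were 4 groups of 2 arrays. Presumptive trigeminal ectoderm, taken from stage 8 embryos and cultured for 18 h in collagen gels in DMEM/F12 with N2 supplements, received 50 ng/ml FGF2 in the first group and no FGF2 in the second. The other two groups were ectoderm dissected from stage 10 embryos and not cultured, from the otic placode in one and from the region lateral to it in the other. Every array received RNA pooled from many pieces of ectoderm and amplified before labelling, so that its values describe a pool and not an embryo. The labels name no genetic alteration and no strain. Cultured and fresh ectoderm differ in culture, in region and in stage at dissection at the same time, and these cannot be told apart.

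Glycolysis splits glucose into pyruvate in the cytoplasm and yields ATP without oxygen. Hexokinases trap glucose in the cell, phosphofructokinase commits it to the pathway, and lactate dehydrogenase turns pyruvate into lactate, which leaves the cell through monocarboxylate transporters. Lactate dehydrogenase is a tetramer of A and B subunits, the A form predominating in muscle and the B form in heart. Conversion of glucose to lactate in the presence of oxygen has been described in the tail bud and in the migrating cranial neural crest of chick embryos.

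The deposited signals are linear intensities, and all differences below are differences of their log2 values after values under 1 had been set to 1, with no scaling between arrays. Median intensity over the probe sets tested was between 27.6 and 29.5 in the 4 cultured arrays and between 25.6 and 31.7 in the 4 fresh arrays. The upper quartile spread more widely, from 126 (no-FGF2 replicate 1) to 146 in cultured arrays. In fresh arrays it ran from 117 (lateral replicate 1) to 166 (otic replicate 2). Of the markers of surface ectoderm, EPCAM, an adhesion protein of epithelia, stood at 8326 to 10915 in cultured and 9207 to 11290.3 in fresh ectoderm, and CDH1, the epithelial cadherin, at 1421 to 2495 and 1119 to 2479. Of the 6 measured genes of that list 0 passed the adjusted threshold between cultured and fresh ectoderm, but KRT19 (named KRT24 in the probe table) and GRHL3, at 2510.3 to 5197 and 17.4 to 45.9 in cultured and 4501 to 12868 and 26.8 to 265 in fresh arrays, had differences of -0.97 and -0.87. PAX2, an early marker of the otic placode, read 136.8 and 355.2 in otic against 17.5 and 17.4 in lateral ectoderm. Its difference of 3.66 on the log2 scale did not pass the adjusted threshold (limma adjusted p = 0.24). PAX3, which marks trigeminal placode, was dim, at 13.7 to 34.4 in cultured and 2.8 to 11.1 in fresh arrays. Of the 4 otic and 4 trigeminal markers listed, 0 passed the adjusted threshold between cultured and fresh ectoderm. At more than 2-fold and unadjusted p under 0.05, PAX3, NEUROG1 and NEUROD1 were higher in culture (1.89, 2.33 and 2.12). The otic marker GBX2 was lower (-1.81). With FGF2 against none, PAX2, GBX2, NEUROD1 and EYA2 were higher past those limits (2.04, 2.96, 3.35 and 2.29), but not past the adjusted threshold. Some genes in lists of markers of other cell types differed between cultured and fresh ectoderm too. In the list of endothelium and blood 5 of 9 genes passed an adjusted p under 0.05 as lower in culture and 0 as higher. The summed log2 level of the 9 was 42.6 to 50.8 in cultured and 59.8 to 77.5 in fresh arrays. By group it was 48.4 to 50.8 with FGF2, 42.6 to 43.1 without, 59.8 to 67.6 in otic and 72.5 to 77.5 in lateral ectoderm. Of 6 genes listed for neural tube 2 were higher (PAX6 and HES5), with sums of 41.8 to 46.4 in cultured and 25.7 to 36.6 in fresh arrays. The authors also have HES5 in their otic-enriched set, so that it does not mark neural tube alone. The neural crest list had 1 of 3 higher (SOX10, by 5.68), with sums of 25.9 to 28.9 against 14.1 to 20.5, and the endoderm and heart list 1 of 6 lower (TNNT2, a difference of -4.11), with sums of 38.3 to 47.3 against 53.7 to 58.9. The list of mesenchyme and mesoderm had 0 of 7 past the adjusted threshold, with sums of 44.4 to 47.3 against 48.7 to 53.1, and PRRX1, FOXC2 and PDGFRA had differences of -2.33, -2.23 and -1.52, lower past the looser limit of more than 2-fold and p under 0.05 before adjustment. No marker of these 5 lists was at 0 on any array, but no detection call was made, so that this does not show that each was expressed.

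To ask how the pathway differed between cultured and freshly dissected ectoderm, the 4 cultured arrays were set against the 4 fresh ones in a limma fit over all 8 arrays. LDHA was the sole gene of the 9 to pass an adjusted p under 0.05, and it was 17.6-fold higher in cultured ectoderm. LDHB, which encodes the other subunit of the same enzyme, had almost equal values on both sides. PGAM1 and a second probe set of ENO1 were also higher on every cultured array than on any fresh one, by less than 2-fold and without passing the adjusted threshold. Of the 16 probe sets 1 passed as higher and 0 as lower, against 0.312% higher and 0.203% lower of all probe sets tested. The median difference over the 16 was 0.14, against 0.006 over all probe sets.

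**Figure D1:**
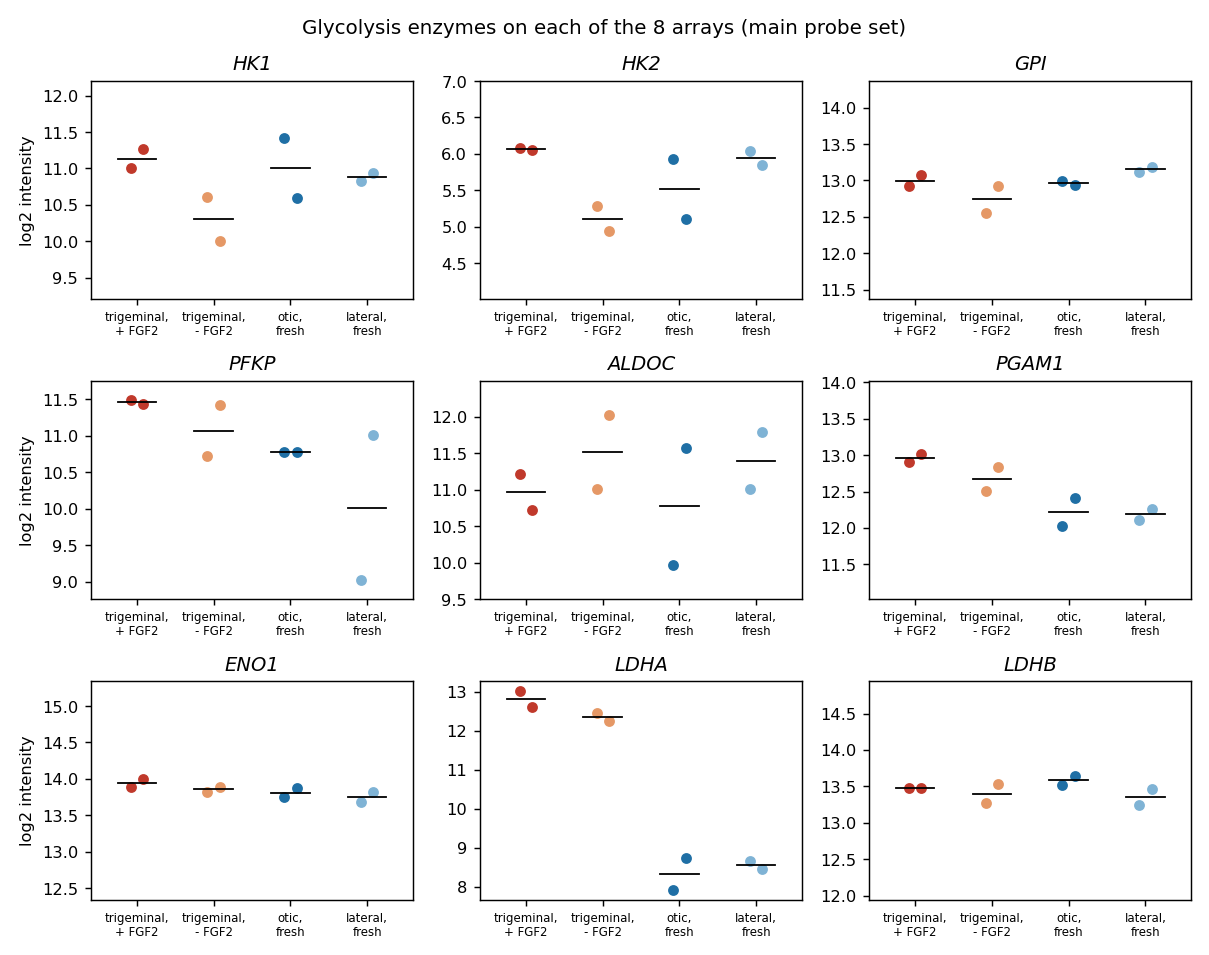
Intensity of the main probe set of each of the 9 enzyme genes on a log2 axis, in trigeminal ectoderm cultured with FGF2, the same cultured without FGF2, fresh otic ectoderm and fresh lateral ectoderm. Points are single arrays and lines are means of 2 arrays. LDHA alone separates the cultured from the fresh arrays by several log2 units.

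The pathway begins with the hexokinases, which phosphorylate glucose on its entry into the cell. HK1, the form found in most tissues, read 2051 and 2471 with FGF2 and 1567 and 1025 without it in culture, against 2729 and 1552 in otic and 1824 and 1961.5 in lateral ectoderm. The cultured and fresh ranges overlapped, and the difference of cultured minus fresh was -0.22 (SE 0.30, adjusted p = 0.83). Its other probe sets gave -0.12 and 0.18, so that the sign was not shared. HK2, the hexokinase that insulin and growth signals raise in mammals, was dim, at 67.4 and 66.2 with FGF2 and 38.9 and 30.7 without, against 60.9 and 34.6 in otic and 65.8 and 57.7 in lateral ectoderm. It too overlapped, with a difference of -0.15 (SE 0.28, adjusted p = 0.89).

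GPI, which converts glucose 6-phosphate into fructose 6-phosphate, was bright on every array. It read 7784 and 8589 with FGF2 and 6034 and 7751 without, against 8153 and 7816 in otic and 8917 and 9318 in lateral ectoderm. The difference of -0.19 (SE 0.23, adjusted p = 0.81) lay within the spread of the arrays, and the other GPI probe sets gave -0.40 and 0.07. PFKP, the platelet form of phosphofructokinase, which catalyses the committing step, read 2886 and 2774 with FGF2, 1689 and 2742 without, 1764 and 1752 in otic and 518 and 2061 in lateral ectoderm. Lateral replicate 1 stood well below the other 7 arrays. The difference was 0.87 (SE 0.47, adjusted p = 0.54), with a 95% interval of -0.27 to 2.02, and was 0.37 without that array. The other PFKP probe sets gave 0.92, in which lateral replicate 1 was again the lowest, and 0.20 in a dim probe set.

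ALDOC, a brain form of the aldolase that cleaves fructose 1,6-bisphosphate, varied widely between the arrays of a group. It read 2385 and 1695.5 with FGF2, 2061 and 4180.0 without, 998 and 3061 in otic and 2062 and 3536 in lateral ectoderm, and its difference was 0.16 (SE 0.48, adjusted p = 0.93). PGAM1, which moves the phosphate of 3-phosphoglycerate, read 7655 and 8251 with FGF2 and 5841 and 7288 without it, against 4186 and 5465 in otic and 4433 and 4928 in lateral ectoderm. The lowest cultured array was above the highest fresh array, a pattern that 3 of the 16 probe sets and 3.70% of all probe sets showed, while 0 of the 16 and 3.88% of all showed the opposite. The PGAM1 difference of 0.61 (SE 0.24, adjusted p = 0.39) did not pass the threshold.

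ENO1, the enolase of most tissues, which forms phosphoenolpyruvate, had probe sets that differed. The brighter read 15201 and 16326 with FGF2 and 14507 and 15156 without, against 13829 and 14956 in otic and 13204 and 14389.6 in lateral ectoderm. These values approach the highest intensity on each array, 16331 to 18697, and the difference was 0.12 (SE 0.22, adjusted p = 0.89). The second probe set read 3996 and 4287 with FGF2 and 3572 and 3942 without, against 2493.5 and 1852 in otic and 1578 and 2136 in lateral ectoderm. Its cultured and fresh arrays did not overlap, and its difference was 0.99 (SE 0.25, adjusted p = 0.18). The ending of its name marks oligonucleotides that may match several transcripts, as is also the case for the main probe sets of HK1, GPI, PFKP and PGAM1.

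LDHA, the subunit that predominates in muscle, was read by a single probe set. It stood at 8303 and 6265 with FGF2 and 5672 and 4837 without it, against 243.5 and 428 in otic and 404 and 352 in lateral ectoderm. Every cultured array was far above every fresh one, with means of 6269 ± 1477 in cultured and 357 ± 82.0 in fresh ectoderm (SD, n = 4 arrays each). The log2 difference was 4.14 (SE 0.29, 95% interval 3.44 to 4.84, limma adjusted p = 0.015), the 58th largest increase and the 12th smallest p among the 38439 probe sets. Fewer cells of a type and less RNA per cell cannot be told apart in such pools.

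LDHB, the subunit that predominates in heart, read 11436 and 11442 with FGF2 and 9886 and 11844 without, against 11748.5 and 12801 in otic and 9713 and 11249 in lateral ectoderm. The cultured and fresh ranges overlapped, although both otic arrays were above both lateral ones. The difference of cultured minus fresh was -0.03 (SE 0.23, adjusted p = 0.98), with an interval of -0.58 to 0.53. Its single probe set lay at percentiles 99.8 to 99.9 of the arrays, and the main GPI probe set at 99.4 to 99.7. Whether signals this bright are compressed, which would make differences look smaller, was not tested. Levels of different probe sets cannot be compared, but the difference of LDHA minus LDHB within an array is free of scaling between arrays, and its change can be followed. On the log2 scale it averaged -0.86 ± 0.34 in cultured and -5.02 ± 0.42 in fresh ectoderm (SD, n = 4 each), a change of 4.16. Because LDHA alone already separated the arrays and LDHB differed little, this change restates the LDHA difference and is given as a description. The same difference for the hexokinases, HK2 minus HK1, averaged -5.14 ± 0.18 in cultured and -5.21 ± 0.34 in fresh ectoderm, a change of 0.08 (exact permutation test, p = 0.657). That test treats the fresh arrays as alike. The otic arrays, at -5.49 and -5.49, were below all cultured arrays (-5.33 to -4.93), and the lateral arrays stood at -4.79 and -5.09.

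**Figure D2:**
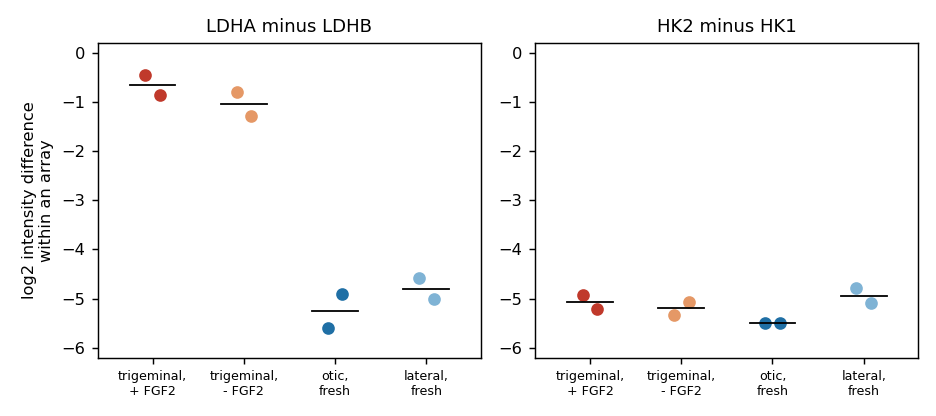
Log2 intensity of LDHA minus LDHB (left) and of HK2 minus HK1 (right) within each array, by group. Points are arrays and lines are means of 2 arrays. The first difference lies between -1.29 and -0.46 in the cultured arrays and between -5.59 and -4.59 in the fresh arrays, while the second overlaps.

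The LDHA difference was of similar size without FGF2 and against either fresh tissue. Cultured ectoderm without FGF2 was 3.91 above both fresh groups (adjusted p = 0.036), and the 4 cultured arrays were 4.25 above otic (adjusted p = 0.047) and 4.03 above lateral ectoderm (adjusted p = 0.027). Without FGF2, and against lateral ectoderm only, it was 3.80 with an adjusted p of 0.053. Leaving out 1 array at a time kept it between 3.94 and 4.34, but the adjusted p passed 0.05 only without otic replicate 2 (0.045) and lay between 0.058 and 0.12 without each of the other 7 arrays. Some of the endothelial, mesenchymal, neural, neural crest and endoderm and heart markers listed above differed in the same contrast. The 3′ minus 5′ difference of control probe sets is a sign of RNA length. For GAPDH it was 1.06 to 1.71 in cultured and 1.69 to 2.27 in fresh arrays. For ACTB it was 1.20 to 1.42 in cultured and 1.02 to 1.36 in fresh arrays. Both control genes overlapped, GAPDH only between FGF2 replicate 2 (1.71) and otic replicate 2 (1.69). The part of these in the LDHA difference was not tested.

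**Figure D3:**
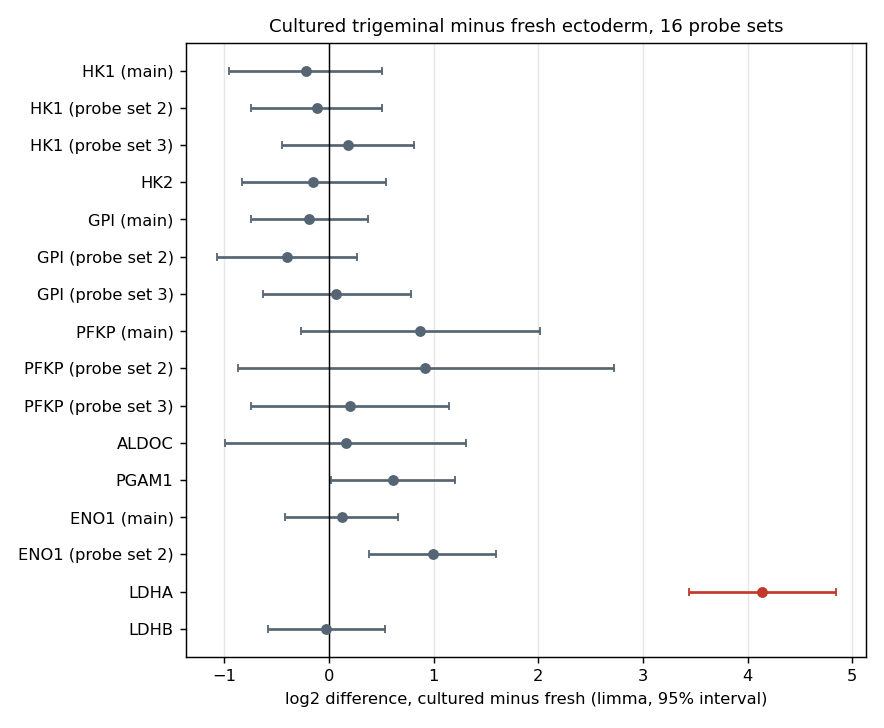
Log2 difference of cultured trigeminal ectoderm (4 arrays) minus fresh otic and lateral ectoderm (4 arrays) for each of the 16 probe sets. Points are limma estimates and bars their 95% intervals. LDHA lies at 4.14, and the intervals of PGAM1 and of the second ENO1 probe set also lie above 0. The intervals are not adjusted for the number of probe sets. In limma 3 of the 16 probe sets had an unadjusted p under 0.05, against 12.2% of all probe sets.

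The other steps of glycolysis were read from a list of 19 further enzymes, of which 10 had a probe set. ENO2, the enolase of neurons, alone passed the adjusted threshold in cultured against fresh ectoderm, and 0 were lower. It read 328.5 and 256 with FGF2 and 104 and 143 without, against 46.7 and 46.4 in otic and 14.6 and 30.1 in lateral ectoderm. No cultured array overlapped a fresh one, and the difference was 2.59 (SE 0.32, adjusted p = 0.044). HKDC1, a hexokinase-like gene singled out after its values were seen, read 509 and 443.5 with FGF2 and 839 and 479 without, against 41.3 and 62.6 in otic and 129 and 339 in lateral ectoderm. It was higher on all cultured arrays and missed the threshold, at 2.41 (SE 0.41, adjusted p = 0.076), and was 1.39 against lateral ectoderm only. The median difference over these 10 genes was 0.24, or 0.07 with the probe set of the largest range for each gene.

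The bright probe sets of GAPDH, TPI1 and pyruvate kinase differed little. GAPDH, which oxidises glyceraldehyde 3-phosphate, differed by 0.29 (SE 0.24, adjusted p = 0.70), TPI1, which interconverts the triose phosphates, by 0.21 (SE 0.25, adjusted p = 0.80), and the pyruvate kinase probe set, named PKLR in the probe table and carrying PKM as a synonym in RefSeq, by -0.08 (SE 0.23, adjusted p = 0.94). GAPDH and the pyruvate kinase probe set lay at percentiles 99.7 to 99.9 of the arrays, where compression of the signal was not tested. The phosphoglycerate kinase probe set is named PGK2 in the table, and RefSeq lists PGK1 among the synonyms of that gene. It read 9701 and 10349 with FGF2 and 7201 and 7654 without, against 6664 and 6619 in otic and 5682 and 6298 in lateral ectoderm. All cultured arrays were above all fresh ones here as well, by 0.45 (SE 0.22, adjusted p = 0.49).

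Among 13 measured genes of glucose and lactate transport, 2 passed as higher in cultured ectoderm and 0 as lower. SLC16A3, the monocarboxylate transporter that exports lactate from glycolytic cells, read 1654.5 and 1796 with FGF2 and 774 and 843 without, against 384 and 533 in otic and 179 and 246 in lateral ectoderm. The 4 groups did not overlap, and the difference of cultured minus fresh was 1.94 (SE 0.26, adjusted p = 0.049). SLC16A8, a related lactate transporter, also passed, at 3.30 (SE 0.37, adjusted p = 0.038), but its values, 7.8 to 24.2 in cultured and 0.8 to 2.9 in fresh ectoderm, lay below the medians of the arrays, and the size of its difference fell to 0.47 with an offset of 32.

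The glucose transporters did not move together. SLC2A1, the transporter of most embryonic tissues, read 2225 and 3161 with FGF2 and 1382 and 1461 without, against 714 and 1221.5 in otic and 1234 and 1655 in lateral ectoderm, and differed by 0.75 (SE 0.30, adjusted p = 0.39). The probe set named SLC2A14, with SLC2A3 among its RefSeq synonyms, read 595 and 581 with FGF2 and 369.9 and 311 without, against 1507 and 989.7 in otic and 566 and 801 in lateral ectoderm, a difference of -1.02 (SE 0.27, adjusted p = 0.20), or -0.59 against lateral ectoderm only. It was thus lower in culture by more than 2-fold with an unadjusted p of 0.0089, like SLC2A2 (-1.19, or -0.52 with an offset of 32) and EMB, a partner protein of lactate transporters (-1.64). SLC2A12, a dim glucose transporter, was higher past the same unadjusted limits, at 59.0 to 76.6 in cultured and 19.2 to 48.3 in fresh arrays. Its difference was 1.21 (SE 0.32, adjusted p = 0.19). None of these passed the adjusted threshold.

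Of 16 measured regulators of glycolytic flux, 1 passed as higher and 0 as lower. PFKFB3 makes and breaks down fructose 2,6-bisphosphate, the activator of phosphofructokinase. It read 914 and 1147 with FGF2 and 544 and 349 without, against 247 and 159.6 in otic and 41.5 and 35.2 in lateral ectoderm. The 4 groups stood in that order without overlap, and cultured minus fresh was 2.94 (SE 0.29, adjusted p = 0.028). PFKFB2, of the same family, was dim and differed by -1.60 (adjusted p = 0.076), or -0.30 with an offset of 32. The adjusted p of ENO2, SLC16A3, SLC16A8 and PFKFB3 lay between 0.055 and 0.20 when any array was left out, and their calls were also lost against otic ectoderm only, where PFKFB3 was 1.75, and for culture without FGF2, against both fresh groups (adjusted p of 0.098 to 0.19) and against lateral ectoderm only (0.058 to 0.12).

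**Figure D4:**
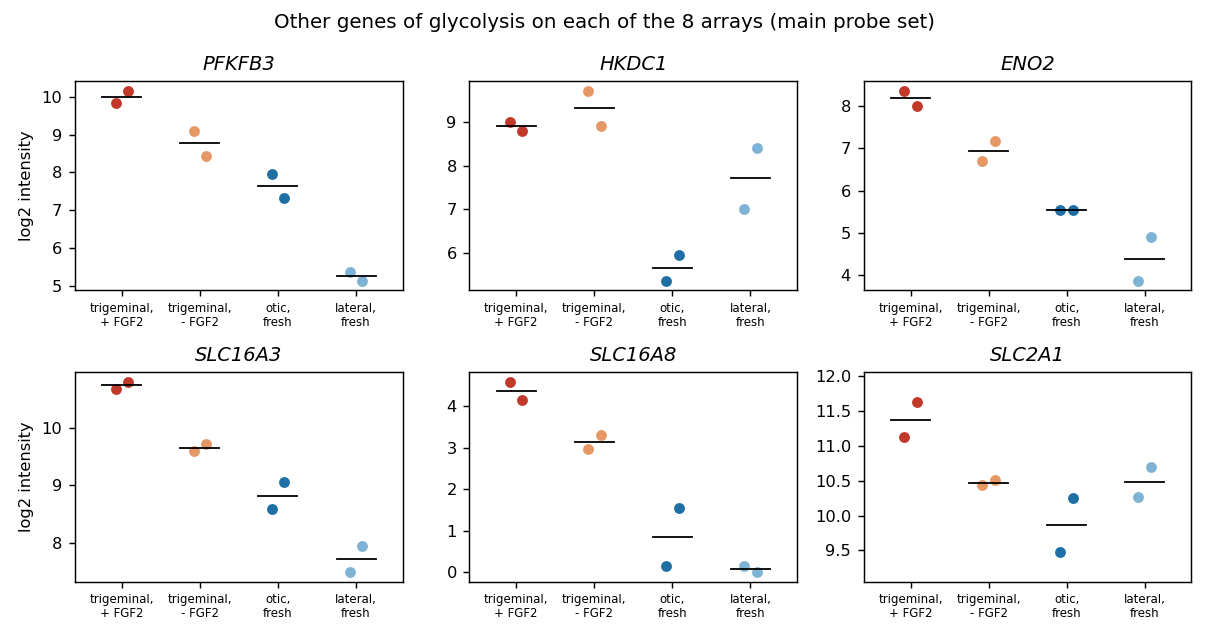
Intensity on a log2 axis of PFKFB3, HKDC1, ENO2, SLC16A3, SLC16A8 and SLC2A1 by group. Points are arrays and lines are means of 2 arrays. In PFKFB3, ENO2 and SLC16A3 every array with FGF2 lies above every array without it, every cultured array above every fresh one and every otic array above every lateral one.

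Lists of the neighbouring pathways held no gene past the adjusted threshold in cultured against fresh ectoderm. This applied to 7 measured genes of gluconeogenesis, 4 of the pentose phosphate pathway, 8 of glycogen metabolism, 11 of the tricarboxylic acid cycle and 7 transcription regulators of glycolysis, whose median differences were -0.19, 0.46, 0.05, -0.15 and 0.23, and to 21 genes of the hypoxia response, with a median of 0.12. At the looser limit of more than 2-fold and p under 0.05 before adjustment, which 4.70% of all probe sets passed as higher and 4.37% as lower, the hypoxia list had 2 genes on each side. P4HA1, a prolyl hydroxylase of collagen, and CA9, a carbonic anhydrase, were higher by 1.17 and 1.09, and CA9 was 0.25 against otic ectoderm only. ADM, a vasoactive peptide, and EPAS1, the hypoxia-inducible factor of endothelium, were lower, with differences of -3.02 and -3.00, and 5 of 9 genes of the endothelium and blood list were lower in the same contrast. The part of that list in the EPAS1 and ADM differences was not tested. Of the transcription regulators KLF4 alone passed the same looser limit, as higher by 1.25 (SE 0.37, adjusted p = 0.25). It was dim, at 2.4 to 4.1 in cultured and 0.8 to 2.8 in fresh arrays, and its difference ranged from 0.07 to 1.87 over the alternatives.

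The second comparison asked what 50 ng/ml FGF2 changed in cultured trigeminal ectoderm. No enzyme gene passed in either direction, and 0% of all probe sets did, the smallest adjusted p over all of them being 0.28. The 16 probe sets had 0 at an unadjusted p under 0.05 in limma, against 5.26% of all probe sets, and 0 above 2-fold with that p, against 2.74% higher and 2.26% lower. On the deposited scale 15 of the 16 had a positive difference, as did 57.4% of all probe sets. The count was 12 after quantile normalization (49.7% of all) and 15 after median centring (53.3% of all). On the deposited scale both arrays with FGF2 were above both arrays without it in 11 of 16, a pattern that 23.4% of all probe sets showed. This fell to 5 of 16 after quantile normalization (17.8% of all) and 8 after median centring (20.7% of all). The opposite pattern held in 0 of 16 on the deposited scale (13.2% of all), 2 after quantile normalization (17.5% of all) and 0 after median centring (16.1% of all). The median over the 16 was 0.27 on the deposited scale, 0.09 after quantile normalization and 0.22 after median centring. Over all probe sets the median was 0.097, -0.0 and 0.041 in that order.

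The hexokinases had the largest differences. HK2 read 67.4 and 66.2 with FGF2 against 38.9 and 30.7 without it, without overlap, a difference of 0.95 (SE 0.40, 95% interval -0.02 to 1.92, adjusted p = 0.96). HK1 read 2051 and 2471 against 1567 and 1025, a difference of 0.83 (SE 0.43, adjusted p = 1.00), and its other probe sets gave 0.57 and 0.18. The intervals of both genes included 0. LDHA, at 8303 and 6265 with FGF2 against 5672 and 4837 without, did not overlap either, but its difference of 0.46 (SE 0.41, adjusted p = 1.00) had an interval of -0.53 to 1.45. ALDOC alone had a negative difference, -0.55 (SE 0.67, adjusted p = 1.00), and its arrays overlapped. The remaining members, GPI, PFKP, PGAM1, ENO1 and LDHB, differed by 0.08 to 0.39.

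**Figure D5:**
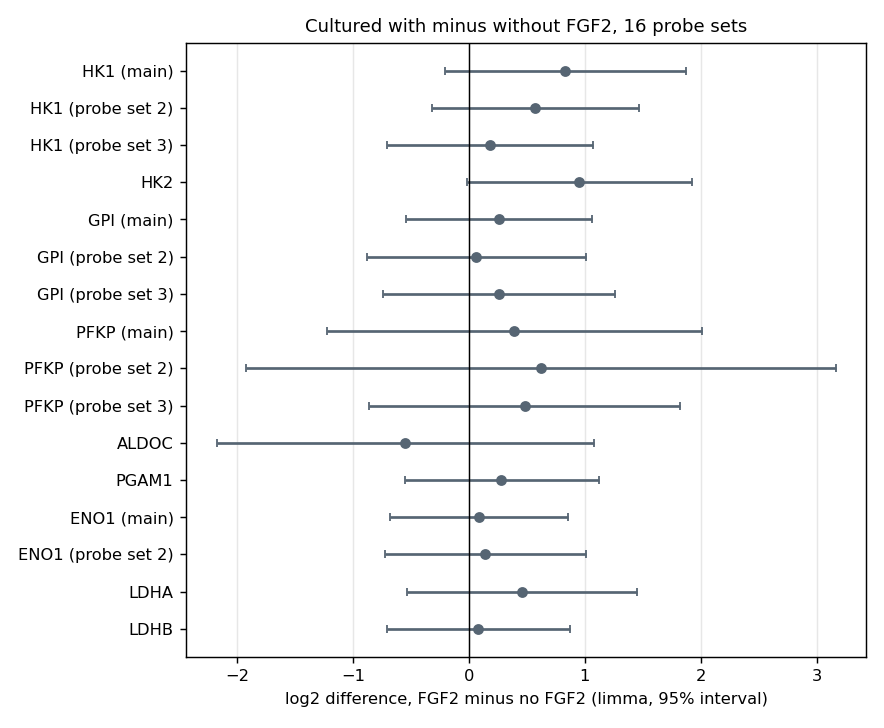
Log2 difference of trigeminal ectoderm cultured with FGF2 (2 arrays) minus without FGF2 (2 arrays) for each of the 16 probe sets. Points are limma estimates and bars their 95% intervals. All intervals include 0, and HK2 and HK1 have the largest estimates, 0.95 and 0.83.

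None of the 9 lists of pathway genes had a member past the adjusted threshold with FGF2. PFKFB3 was higher by 1.23 (SE 0.42, adjusted p = 0.82), ENO2 by 1.25 (SE 0.46, adjusted p = 0.88) and SLC16A3 by 1.09 (SE 0.36, adjusted p = 0.81), each without overlap and above 2-fold with an unadjusted p under 0.05. SLC2A2, a glucose transporter of liver, passed the same limits, at 34.0 and 22.7 with FGF2 against 17.5 and 8.2 without, a difference of 1.21 (SE 0.50, adjusted p = 0.95), which was 0.67 without no-FGF2 replicate 2 and 0.43 with an offset of 32. On the deposited scale the transport list had a median of 0.78, against 0.097 over all probe sets. Its median after other scalings was not computed. In that list SLC2A1, at 2225 and 3161 with FGF2 against 1382 and 1461 without, contributed 0.90. SLC16A1, the most widespread lactate transporter, read 5040.2 and 5809 with FGF2 against 3526 and 2629.8 without, a difference of 0.83 (SE 0.34, adjusted p = 0.95). Lower with FGF2 past the unadjusted limits were the dim PFKFB2 (-1.81) and PC, a carboxylase of gluconeogenesis, at 5.4 and 3.1 with FGF2 against 34.2 and 40.7 without, a difference of -3.19 (SE 0.74, adjusted p = 0.49). Both lay near or below the array medians, and with an offset of 32 they were -0.23 and -0.94. Marker lists differed with FGF2 as well. The sums of the endothelium and blood list were 48.4 to 50.8 with FGF2 against 42.6 to 43.1 without. Those of the otic list were 31.0 to 32.3 against 25.3 to 26.6, and of the trigeminal list 24.0 to 24.7 against 15.6 to 17.5. The trigeminal list includes EYA2, which the authors count among general placodal markers, and EYA2 and NEUROD1 are among their FGF up-regulated genes. The sums of the other marker lists overlapped. The part of these in the differences with FGF2 was not tested.

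Otic and lateral ectoderm, the fresh groups, were compared to show what the first comparison averages over. No enzyme gene passed in either direction, and 0% of all probe sets did, with a smallest adjusted p of 0.20. The 16 probe sets had 0 at an unadjusted p under 0.05, against 8.24% of all, and 0 above 2-fold with that p, against 5.05% higher and 2.73% lower. Both otic arrays were above both lateral ones in 3 and below them in 2, patterns that 24.7% and 11.3% of all probe sets showed. LDHA differed by -0.23 (SE 0.41, adjusted p = 0.92) and LDHB by 0.23 (SE 0.33, adjusted p = 0.89), PFKP by 0.77 (SE 0.67, adjusted p = 0.80) and ALDOC by -0.63 (SE 0.67, adjusted p = 0.84). The intervals of PFKP and ALDOC were wide, -0.85 to 2.39 and -2.25 to 1.00, so that sizable differences were not detectable with 2 arrays per group. The median over the 16 was 0.09 on the deposited scale, against 0.19 for all probe sets, and turned to -0.06 after quantile normalization and -0.10 after median centring.

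Outside the 9 genes, otic ectoderm exceeded lateral ectoderm in PFKFB3 by 2.38 (SE 0.42, adjusted p = 0.22), ENO2 by 1.15 (SE 0.46, adjusted p = 0.59) and SLC16A3 by 1.11 (SE 0.36, adjusted p = 0.50), all above 2-fold with an unadjusted p under 0.05. The ENO2 difference was 0.63 without lateral replicate 1 and 0.55 with an offset of 32. HKDC1 went the other way, with a difference of -2.04 (SE 0.58, adjusted p = 0.42), and -1.34 without lateral replicate 2. SLC16A7, a monocarboxylate transporter, was also lower past the unadjusted limits, at 3.1 and 2.2 in otic against 13.4 and 32.5 in lateral ectoderm, a difference of -3.00 (SE 1.02, adjusted p = 0.51), but it was dim and the offset brought it to -0.64. In the hypoxia list CA9, at 2127 and 3248 in otic against 787 and 869 in lateral ectoderm, and HIF1A, the oxygen-regulated transcription factor, at 1544 and 2129 against 982 and 647, were higher by 1.67 and 1.19 past the same unadjusted limits. VEGFA, the endothelial growth factor, and NDRG1, a stress-responsive gene, were lower past them, with differences of -2.20 and -1.21, and VEGFA was -1.28 without otic replicate 1. The endothelium and blood list stood lower in otic ectoderm too, with sums of 59.8 to 67.6 against 72.5 to 77.5 in lateral ectoderm. The part of that list in the otic and lateral differences was not tested. MYCN, a transcription factor known to drive glycolytic genes in mammalian tumours, was higher by 2.25 (SE 0.42, adjusted p = 0.24), at 4456 and 7015 against 1117 and 1238.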

How the data were processed

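RNA of 8 pools of chick ectoderm, 2 in each of 4 groups, was amplified, labelled with biotin and hybridised to GeneChip Chicken Genome arrays. The authors deposited 1 linear intensity per probe set and array; how probes were summarised, corrected for background and scaled is not stated in the labels or methods, which name limma for the authors' own comparison. Of 38535 rows, 96 controls were left out. Values under 1 were set to 1 (2.30% to 2.90% of an array) and log2 was taken. limma 3.58.1 in R 4.3.3 fitted a mean per group over all 8 arrays (4 residual degrees of freedom), with two-sided tests, Benjamini-Hochberg adjustment over 38439 probe sets and a threshold of 0.05. A looser limit was more than 2-fold and p under 0.05 before adjustment. The procedure was tested on simulated data.

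Probe sets were matched by gene symbol, of which 27168 had 1, 177 several and 11094 none; RefSeq synonyms were used for the other lists. Genes of a list were named by a rule that takes up to 4 per direction with the largest change past the adjusted threshold, or past the fold limit where none passed. Other genes, among them HKDC1, SLC2A1, SLC2A12, SLC16A1, GAPDH and TPI1, were named outside this rule in at least 1 comparison. The 9 genes, the lists and the rule were chosen with earlier results of these data known. The labels number the arrays of a group but do not say whether the 2 pools came from separate dissections, so that p-values measure the spread between these arrays. The number of arrays limits the precision. The alternatives were other scalings, an offset of 32, leaving out the dimmest 40% of probe sets, an intensity trend, the replicate number as a block, other choices of groups, fits of 4 arrays, the probe set of largest range and each array left out in turn. A planned count of promoter motifs was not run. Python 3.11.15 with matplotlib 3.10.9 drew the figures.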

Additional observations from a re-analysis of the deposited data

How the results depend on the processing

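With 2 arrays per group the number of calls moved with the settings. In cultured against fresh ectoderm 198 probe sets passed an adjusted p under 0.05, against 327 after quantile normalization, 846 with an offset of 32, 811 without the dimmest 40%, 945 with an intensity trend, 10 with the replicate number as a block, 49 for culture without FGF2, 15 against otic ectoderm only, 17 for culture without FGF2 against lateral ectoderm, and 0 to 20 when an array was left out, with 20 without otic replicate 2, 10 without no-FGF2 replicate 1 and 0 without each of the others. The enzyme probe sets among them numbered 1, and 2 with the offset or the trend, 0 with the block or for culture without FGF2 against lateral ectoderm, and 0 to 1 when an array was left out. At the 2-fold limit they numbered 1, and 2 after quantile normalization, against lateral ectoderm only and for culture without FGF2 against it, and 1 to 4 when an array was left out, with 4 without lateral replicate 2 and 2 without otic replicate 1, no-FGF2 replicate 1 or FGF2 replicate 1. With FGF2 against none, all these counts stayed at 0. In otic against lateral ectoderm the total of 0 was 1 with the offset, 3 without the dimmest probe sets and 45 with the trend, and enzyme probe sets at the 2-fold limit were 0 to 2 when an array was left out, reaching 2 without lateral replicate 2.

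LDHA in cultured against fresh ectoderm was 4.15 after quantile normalization, 4.12 after centring and 4.02 with the offset, all past the threshold, and the adjusted p was 0.059 with the replicate block. Deviations of same-numbered arrays correlated at -0.02 to 0.03 over probe sets, so that no shared pattern over probe sets was seen. A shift of a whole array leaves such a correlation unchanged. The upper quartile of intensity was higher in replicate 2 than in replicate 1 without FGF2 (145 against 126), in otic (166 against 131) and in lateral ectoderm (143 against 117). With FGF2 it was 146 in both. These correlations cannot show whether same-numbered pools were dissected or cultured together. Several differences changed sign, among them PFKP (0.77) and ALDOC (-0.63) in otic against lateral and SLC2A1 (0.75) in cultured against fresh ectoderm. When an array was left out, cultured minus fresh ranged from -0.35 to 0.06 for HK2, -0.24 to 0.57 for ALDOC and -0.09 to 0.04 for LDHB, FGF2 minus none from -0.05 to 0.21 for LDHB, and otic minus lateral from -0.29 to 0.53 for HK1, -0.23 to 1.76 for PFKP, -1.44 to 0.18 for ALDOC, -0.00 to 0.12 for ENO1, -0.16 to 0.23 for PGAM1 and -0.63 to 0.18 for LDHA. Against otic ectoderm only HK2 was 0.07, against lateral ectoderm only ALDOC was -0.15 and LDHB 0.09, and for culture without FGF2 against lateral ectoderm LDHB was 0.05 and SLC2A1 -0.01. After quantile normalization LDHB with FGF2 was -0.02, and in otic against lateral ectoderm HK1, ENO1, PGAM1 and PGK2 were -0.05, -0.03, -0.14 and -0.01, and -0.07, -0.13, -0.16 and -0.04 after centring. When an array was left out, the change of HK2 minus HK1 was -0.01 to 0.22, and that of LDHA minus LDHB 3.97 to 4.31. With the probe set of largest range for each gene, the counts past the adjusted threshold in the 9 pathway lists did not change, and 4 in place of 5 genes of endothelium and blood passed. The cause of these changes was not tested.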

Other observations

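The genes whose profiles over the 8 arrays were most like the mean profile of the 9 enzymes were CHST2, a sulfotransferase, ACP6, a lipid phosphatase, ABHD12, a lipid hydrolase, DENND1B, a regulator of membrane traffic, and CADPS, a protein of vesicle release. Likeness was the root mean square difference of centred log2 values among 9535 genes of the upper part of the intensity range. It was 0.08, 0.10, 0.11, 0.11 and 0.11, and the mean profile itself varied by 0.33. LDHA, with a difference of cultured minus fresh of 4.14, weighs most in that mean profile. The genes named here differed by 0.50 to 0.69 in that comparison. HK1, HK2, GPI and LDHB differed by -0.22, -0.15, -0.19 and -0.03, so that likeness to the mean is not likeness to each enzyme.

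The profiles most like that of LDHA alone, a search added after its values were seen, were those of SCIN, an actin-severing protein (0.30), TFAP2B, a transcription factor of neural crest and ectoderm (0.62), LOC419390 (0.63), OPTC, a matrix proteoglycan (0.65), and TMEM108 (0.66), where the LDHA profile varied by 2.09. SCIN read 1504 and 1631 with FGF2 and 1052 and 1008 without it, against 70.5 and 81.0 in otic and 61.0 and 59.0 in lateral ectoderm. TFAP2B read 1410.5 and 1532 with FGF2 and 949 and 1319.8 without, against 69.8 and 90.9 in otic and 32.8 and 35.1 in lateral ectoderm. These likenesses are descriptions over 8 arrays that share their groups, and no test was made of them.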
